A study of Caenorhabditis elegans with 12 samples.

Results

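The genes described here are 10 *C. elegans* genes that shape, connect, move and supply mitochondria: the fusion GTPases *fzo-1* and *eat-3*, the fission GTPase *drp-1*, the fission adaptors *mff-1*, *mff-2*, *fis-1* and *fis-2*, the transport GTPase *miro-1*, the import receptor *tomm-20* and the cristae gene *immt-1*. They were chosen by symbol, with earlier results of these data known, and all 10 were found among the 21882 genes of the deposited tables. Mitochondria in a cell join into networks by fusion of their outer and inner membranes and are cut apart by fission, in which a dynamin-related GTPase is brought to the outer membrane and constricts it. Transport along microtubules places them in the cell, and almost all of their proteins are made in the cytosol and imported through the TOM and TIM complexes. The study asked about mitochondrial networks in worms with low TORC1 signalling, the growth pathway that senses amino acids through the Rag GTPases, of which RAGA-1 is one.

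RNA-Seq was done on whole mid-L4 larvae in 3 groups of 4 samples, each sample a pool of worms from its own egg lay. Rescue worms carried the deletion allele *raga-1(ok386)* and the extrachromosomal array wbmEx238, in which the pan-neuronal *rab-3* promoter drives *raga-1* cDNA with SL2::mCherry and the *unc-54* 3′ UTR. Mutant worms carried *raga-1(ok386)* alone, backcrossed to N2, and wild type worms were N2, so the deletion is shared by rescue and mutant. All worms were fed HT115 bacteria with the empty vector L4440. Extrachromosomal arrays are not carried by every cell, and the study's images of old adults, a later stage than these larvae, show array expression in the intestine too. Rescue worms were picked under fluorescence onto a fresh plate before collection while the others were washed straight off, so handling and strain cannot be told apart in comparisons with rescue. Levels are in CPM, counts scaled to a common library size with TMM, edgeR's correction for library composition, and a group's level is its mean ± SD (n = 4). Differences are log2 fold changes from 1 fit of edgeR's quasi-likelihood model to all 12 samples, and a difference was called where its p, adjusted by Benjamini-Hochberg over the 15728 genes tested, was under 0.01. P-values measure the spread between these independent egg lays.

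Library totals were 24724610 to 31410363 estimated counts in rescue, 20320091 to 35619305 in the mutant and 14287510 to 26701924 in wild type. *raga-1* averaged 857 ± 37.3 CPM in rescue, 1.56 ± 0.14 CPM in the mutant and 66.3 ± 3.47 CPM in wild type. The mutant was lowest, as its label gives. Rescue was above wild type by a fold of 12.9, a level in whole worms that the labels do not give. Markers of body wall muscle, intestine, neurons, hypodermis, germline and sperm were all present, with 0 markers at 0 throughout a group. Wild type replicates 1 and 3 lay apart from replicates 2 and 4. The cuticle collagen gene *dpy-7*, which oscillates with the moult, had 70.8, 0.18, 14.1 and 1.63 CPM in wild type replicates 1 to 4, and the yolk gene *vit-2* had 2518, 9507, 3331 and 8187 CPM in the same order. Mutant samples spanned 5.64 to 13.7 CPM and rescue samples 20.02 to 58.4 CPM of *dpy-7*, so all rescue samples lay above all mutant samples. That difference was not called (adjusted p = 0.366). The paper reports a developmental delay of *raga-1(ok386)* mutants, and stage and strain cannot be told apart in comparisons of these groups. In whole worms, fewer cells of a type and less RNA per cell cannot be told apart.

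By edgeR, *tomm-20* and *fis-2* were the genes called different between groups. In the mutant, 2 of the 10 genes were called against wild type, *tomm-20* and *fis-2*, both lower, where 15.4% of all tested genes were called and 9.01% were called lower. In rescue, 1 of 10 was called against wild type, *tomm-20*, again lower, where 23.7% of all genes were called and 13.5% were called lower. Between rescue and mutant 0 of 10 were called by edgeR, where 0.381% of all genes were, 2 of the 10 (*fzo-1* and *immt-1*) had an unadjusted p under 0.05, beside 17.1% of all genes, and DESeq2 also called 0. Tested over the 3 groups at once, *tomm-20* alone was called (adjusted p = 0.000389), where 21.1% of all genes were called. Since 1 gene makes 10% of the list, these counts are not read as a property of the list.

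**Figure D1:**
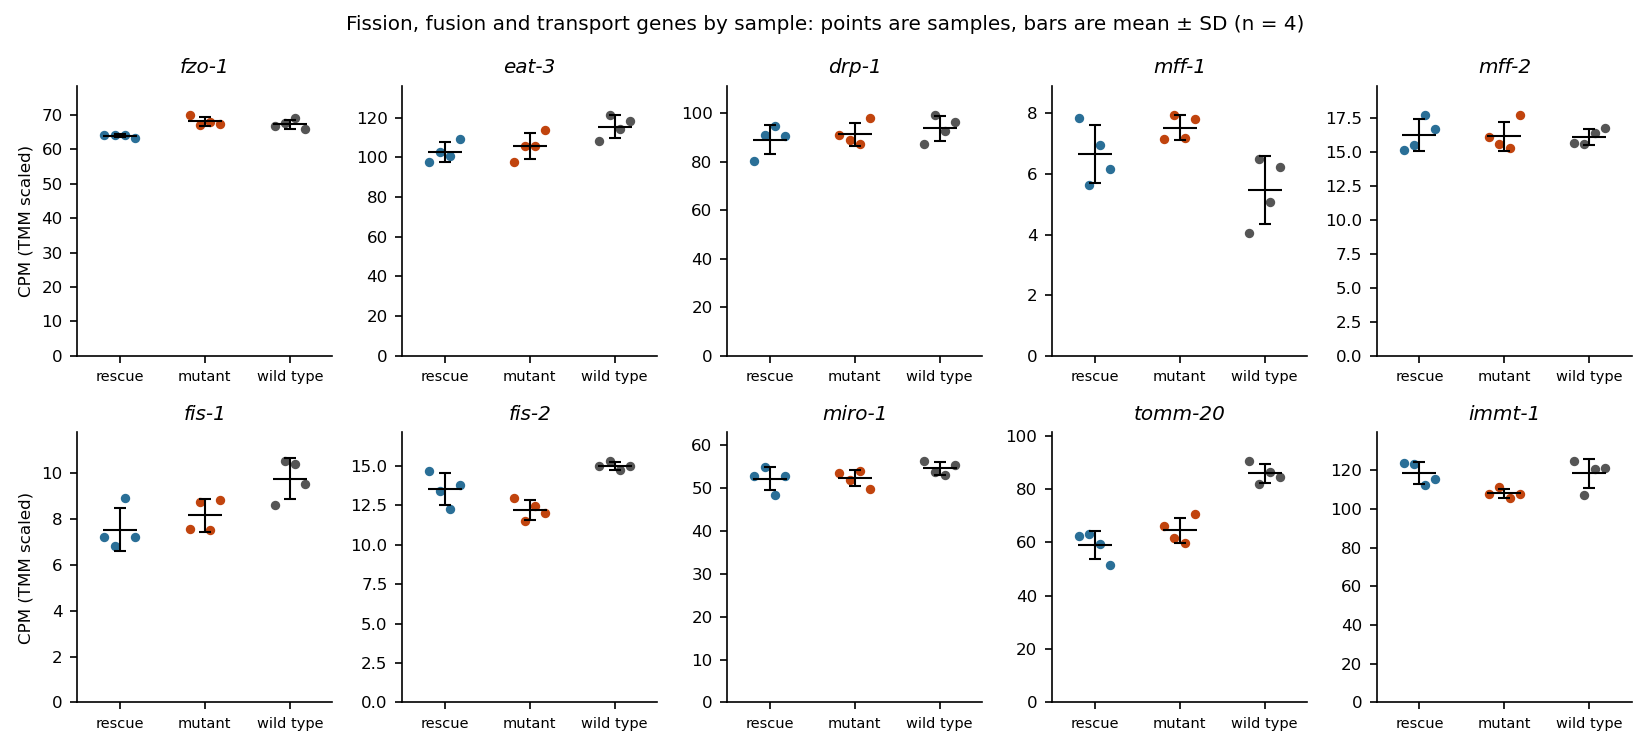
CPM (TMM scaled, axes from 0) of each gene in each sample of rescue, mutant and wild type, from left to right in each panel; points are samples and bars are mean ± SD (n = 4). *tomm-20* wild type samples (82.1 to 90.4 CPM) stand clear of all mutant and rescue samples (51.5 to 70.6 CPM), as do those of *fis-2* by a smaller margin. *drp-1*, *eat-3*, *mff-2*, *fis-1* and *miro-1* samples overlap in all 3 comparisons.

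Over the 10 genes, log2 fold changes had a median size of 0.13 for the mutant against wild type, beside 0.24 over all genes tested. It was 0.11 beside 0.28 for rescue against wild type and 0.10 beside 0.13 for rescue against the mutant. With sign, the medians over the 10 genes were -0.09, -0.07 and -0.04 in those comparisons, beside 0.00, 0.04 and -0.00 over all genes. In each comparison 7 of the 10 genes had a log2 fold change below 0. The 2 comparisons with wild type share its 4 samples. All genes tested include many at lower levels than these 10, and no genes matched for level were compared, so the smaller sizes are not read as a property of the list.

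Neither fusion gene was called in any comparison. *fzo-1* (WBGene00001509; WBcel235, chromosome II, 5833328 to 5836203, minus strand; 8 exons, 774 codons) encodes the mitofusin that joins outer membranes. It had 64.3, 64.2, 64.3 and 63.3 CPM in rescue, 70.02, 67.1, 68.0 and 67.3 CPM in the mutant, and 66.7, 67.7, 69.1 and 66.1 CPM in wild type. Mutant and wild type samples overlapped, and the 4 rescue samples lay below all 8 others. The log2 fold change of *fzo-1* for the mutant against wild type was 0.02 (95% interval -0.07 to 0.10, adjusted p = 0.788), an interval of -4.57% to 7.10% in level. Rescue differed from the mutant by -0.09 (-0.17 to -0.01, adjusted p = 0.264) and from wild type by -0.07 (-0.16 to 0.01, adjusted p = 0.148), neither of them called. With library size alone as scaling, the difference between rescue and wild type was 0.02 instead. Its coefficient of variation was 0.779% in rescue and 1.95% in the mutant, the lowest of the 10 genes there, and 1.94% in wild type, where *fis-2* was lower at 1.56%. *fzo-1* had 1575 to 2101 counts in rescue and 1411 to 2367 in the mutant. At such counts, counting error alone is larger than these coefficients, so they are not read as a trait of the gene.

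*eat-3* (WBGene00001134; chromosome II, 9324874 to 9329665, plus strand; 9 exons, 964 codons) is the worm OPA1, the GTPase that fuses inner membranes. Its levels were 97.6, 103, 101 and 109 CPM in rescue, 97.5, 106, 106 and 114 CPM in the mutant and 108, 121, 114 and 118 CPM in wild type. All 4 rescue and all 4 mutant samples were below the wild type mean, although the ranges overlapped in both cases. The log2 fold change was -0.17 in rescue (SE 0.06, adjusted p = 0.0386) and -0.13 in the mutant (SE 0.06, adjusted p = 0.128), so neither was called. Rescue and mutant differed by -0.04 (95% interval -0.17 to 0.09).

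*drp-1* (WBGene00001093; chromosome IV, 5538488 to 5541365, plus strand; 8 exons, 712 codons) encodes the dynamin-related GTPase that constricts and divides mitochondria. Samples had 80.3, 91.1, 94.6 and 90.5 CPM in rescue, 91.0, 89.0, 87.3 and 98.1 CPM in the mutant, and 87.3, 99.3, 92.5 and 96.2 CPM in wild type. The 3 groups overlapped throughout. Its log2 fold change was -0.04 for the mutant against wild type (95% interval -0.18 to 0.10), -0.07 for rescue against wild type (-0.21 to 0.06) and -0.04 for rescue against the mutant (-0.17 to 0.10), and the 3 adjusted p-values were 0.682, 0.384 and 0.812.

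Since fusion and fission act against each other, the counts of their GTPases were also set against one another within each sample, which needs no scaling between libraries. Each *drp-1* count was accompanied by 0.721 ± 0.054 *fzo-1* counts in rescue, 0.747 ± 0.042 in the mutant and 0.720 ± 0.042 in wild type, and the ranges of the 3 groups overlapped. The ratio of *eat-3* to *drp-1* counts was 1.22, 1.13, 1.06 and 1.21 in rescue, 1.07, 1.19, 1.21 and 1.16 in the mutant, and 1.24, 1.22, 1.24 and 1.23 in wild type. Its wild type range, 1.222 to 1.238, lay above the highest mutant sample (1.213) and the highest rescue sample (1.215), with an SD of 0.007 in wild type against 0.062 in the mutant and 0.072 in rescue. The ratio of *fzo-1* to *eat-3* averaged 0.626 ± 0.034 in rescue, 0.647 ± 0.053 in the mutant and 0.585 ± 0.031 in wild type, with overlapping ranges. These ratios are given as descriptions, without a test. Wild type samples had 1204 to 2475 *drp-1* counts. At such counts, counting error in a ratio is larger than the wild type SD of 0.007 and than the gap to the other groups. How many other pairs of genes have ratios that separate the groups was not examined, so this separation is not read as a trait of wild type.

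**Figure D2:**
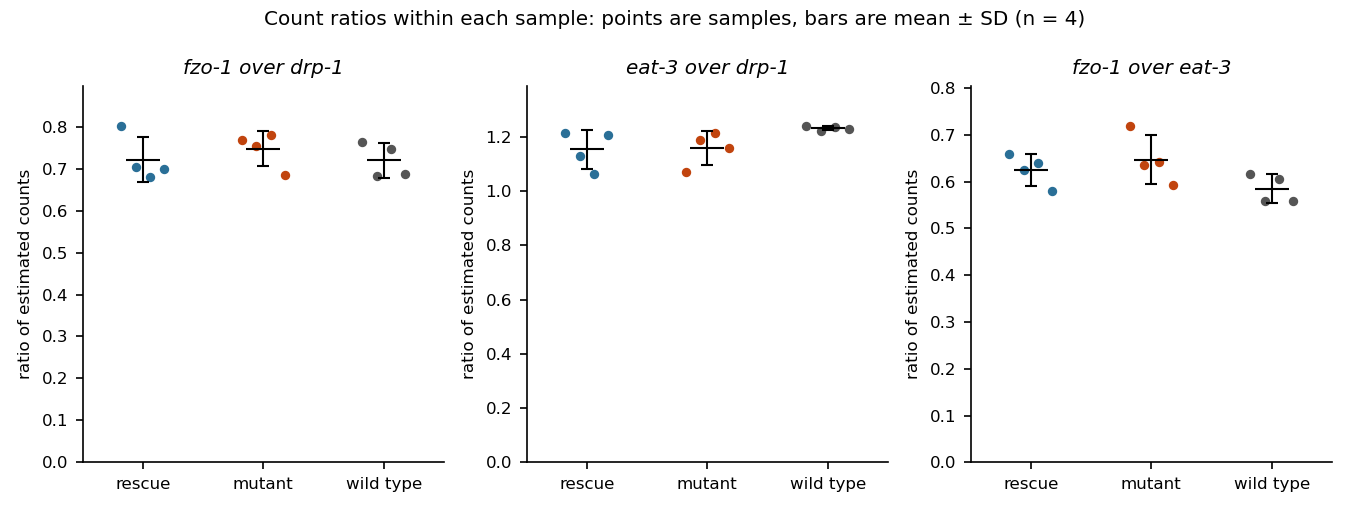
Ratio of estimated counts of 2 genes within a sample (no unit, axes from 0) for rescue, mutant and wild type; points are samples and bars are mean ± SD (n = 4). The *fzo-1* to *drp-1* ratios of the 3 groups overlap, and the wild type *eat-3* to *drp-1* ratios lie within 1.222 to 1.238, a range narrower than counting error. No ratio was tested.

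The fission adaptors sit in the outer membrane. *mff-1* and *mff-2* are the worm relatives of mammalian MFF, which recruits DRP1 to mitochondria in mammals. *mff-1* (WBGene00008691; chromosome X, 12985790 to 12987219, minus strand; 5 exons, 158 codons) was the lowest of the 10 genes, from 56 counts in wild type replicate 1 to 280 counts in mutant replicate 2. It had 7.84, 5.65, 6.96 and 6.14 CPM in rescue, 7.15, 7.94, 7.18 and 7.80 CPM in the mutant, and 4.06, 6.50, 5.09 and 6.22 CPM in wild type. All mutant samples were above all wild type samples, and the low wild type samples were replicates 1 and 3, the ones that stood apart in *dpy-7* and *vit-2*. The mutant had a log2 fold change of 0.45 against wild type (SE 0.15, 95% interval 0.13 to 0.77, adjusted p = 0.0375), which was not called. Without wild type replicates 1 and 3 it was 0.24 (adjusted p = 0.204), and without replicates 2 and 4 it was 0.70 (adjusted p = 0.00392). Rescue differed from wild type by 0.27 (adjusted p = 0.165) and from the mutant by -0.18 (adjusted p = 0.551). The last exon of *mff-1* shares 79 exonic bases with the opposite-strand gene *scav-4*, which was not called in any comparison (adjusted p = 0.236 for the mutant and 0.292 for rescue against wild type).

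*mff-2* (WBGene00018894; chromosome I, 5657917 to 5658712, minus strand; 2 exons, 161 codons) was called in no comparison. Levels were 15.2, 15.5, 17.7 and 16.7 CPM in rescue, 16.1, 15.6, 15.3 and 17.7 CPM in the mutant, and 15.7, 15.6, 16.4 and 16.8 CPM in wild type. All 3 groups overlapped, and the log2 fold changes were 0.01 for the mutant against wild type (95% interval -0.16 to 0.17), 0.02 for rescue against wild type (-0.14 to 0.18) and 0.01 for rescue against the mutant (-0.15 to 0.17). Their signs turned in several alternatives.

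*fis-1* and *fis-2* are the worm relatives of Fis1, the tail-anchored outer membrane protein that takes part in fission in yeast. *fis-2* (WBGene00001425; chromosome X, 8283275 to 8285219, minus strand; 4 exons, 151 codons) had 14.7, 13.4, 12.3 and 13.8 CPM in rescue, 12.96, 11.5, 12.5 and 11.98 CPM in the mutant, and 15.004, 15.3, 14.7 and 14.96 CPM in wild type. Wild type samples stood above all mutant and all rescue samples. The mutant was lower by a log2 fold change of -0.29 (SE 0.07, adjusted p = 0.00961), a change of -18.5% (95% interval -26.8% to -9.16%). This call was just inside the threshold and was lost on leaving out any 1 of the 12 samples (adjusted p 0.0101 to 0.0354). In rescue the log2 fold change against wild type was -0.15 (adjusted p = 0.118) and against the mutant 0.15 (adjusted p = 0.320). *fis-2* shares 27 exonic bases with the opposite-strand gene *ksr-1*, whose log2 fold change in the mutant was 0.15 (adjusted p = 0.0893).

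*fis-1* (WBGene00001424; chromosome II, 6755174 to 6755965, plus strand; 4 exons, 143 codons) had 7.23, 6.83, 8.91 and 7.20 CPM in rescue, 7.55, 8.74, 7.52 and 8.83 CPM in the mutant, and 8.63, 10.5, 10.4 and 9.52 CPM in wild type. Rescue replicate 3 and wild type replicate 1 were the samples that made rescue and wild type overlap. Rescue had a log2 fold change of -0.38 against wild type (SE 0.11, adjusted p = 0.0166), not called. Leaving out rescue replicate 3 gave -0.46 (adjusted p = 0.00611) and leaving out wild type replicate 1 gave -0.43 (adjusted p = 0.00927), both past the threshold. Only these 2 of the 12 fits without 1 sample called it, and adjusted p ran up to 0.0480 in the 12. DESeq2 called it on all samples (adjusted p = 0.00525). Library size alone gave -0.275 (adjusted p = 0.0978) and a collection day block -0.36 (adjusted p = 0.0767), neither called. For the mutant the log2 fold change was -0.26 (adjusted p = 0.0896), and rescue differed from the mutant by -0.11 (adjusted p = 0.611).

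*miro-1* (WBGene00019544; chromosome IV, 4712825 to 4715807, minus strand; 8 exons, 625 codons) encodes the outer membrane GTPase that in flies and mammals couples mitochondria to microtubule motors. It had 52.7, 54.8, 48.3 and 52.8 CPM in rescue, 53.4, 51.9, 53.9 and 49.8 CPM in the mutant, and 56.2, 53.8, 52.9 and 55.3 CPM in wild type. The groups overlapped. The log2 fold changes were -0.06 for the mutant against wild type (95% interval -0.17 to 0.05, adjusted p = 0.396), -0.07 for rescue against wild type (-0.18 to 0.05, adjusted p = 0.335) and -0.00 for rescue against the mutant (-0.11 to 0.11, adjusted p = 0.978).

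*immt-1* (WBGene00020511; chromosome X, 2682754 to 2687184, minus strand; 11 exons, 679 codons) encodes a mitofilin, the core of the MICOS complex that holds cristae junctions. Its levels were 124, 123, 112 and 115.4 CPM in rescue, 108, 111, 106 and 108 CPM in the mutant, and 125, 107, 121 and 121 CPM in wild type. All rescue samples were above all mutant samples, by a log2 fold change of 0.13 (95% interval 0.01 to 0.26, adjusted p = 0.257), which was not called. The mutant was below the wild type mean in 4 of 4 samples, with a log2 fold change of -0.13 (adjusted p = 0.102), while wild type replicate 2 fell among the mutant samples. Rescue differed from wild type by 0.00 on the log2 scale (95% interval -0.12 to 0.13). An annotated noncoding RNA, T14G11.6, covers 68 exonic bases of *immt-1* on the opposite strand.

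*tomm-20* (WBGene00009092; chromosome V, 12342314 to 12343469, minus strand; 3 exons, 188 codons) encodes the receptor of the TOM complex that binds precursor proteins arriving from the cytosol. It had 62.3, 63.1, 59.3 and 51.5 CPM in rescue, 66.0, 61.5, 59.9 and 70.6 CPM in the mutant, and 90.4, 82.1, 86.4 and 84.7 CPM in wild type. The lowest wild type sample was above the highest mutant and rescue samples. The log2 fold change was -0.41 in the mutant (SE 0.07, adjusted p = 0.00175), a change of -24.9% (95% interval -32.8% to -16.1%), and -0.54 in rescue (SE 0.07, adjusted p = 0.000192), a change of -31.3% (-38.5% to -23.2%). Rescue differed from the mutant by -0.13 (SE 0.07, adjusted p = 0.397), and rescue samples were below the mutant mean in 4 of 4. Both calls against wild type held on leaving out each sample in turn. With the collection day as a block, the log2 fold change in the mutant was -0.44 and no longer called (adjusted p = 0.0159), while rescue stayed called at -0.57 (adjusted p = 0.00447).

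**Figure D3:**
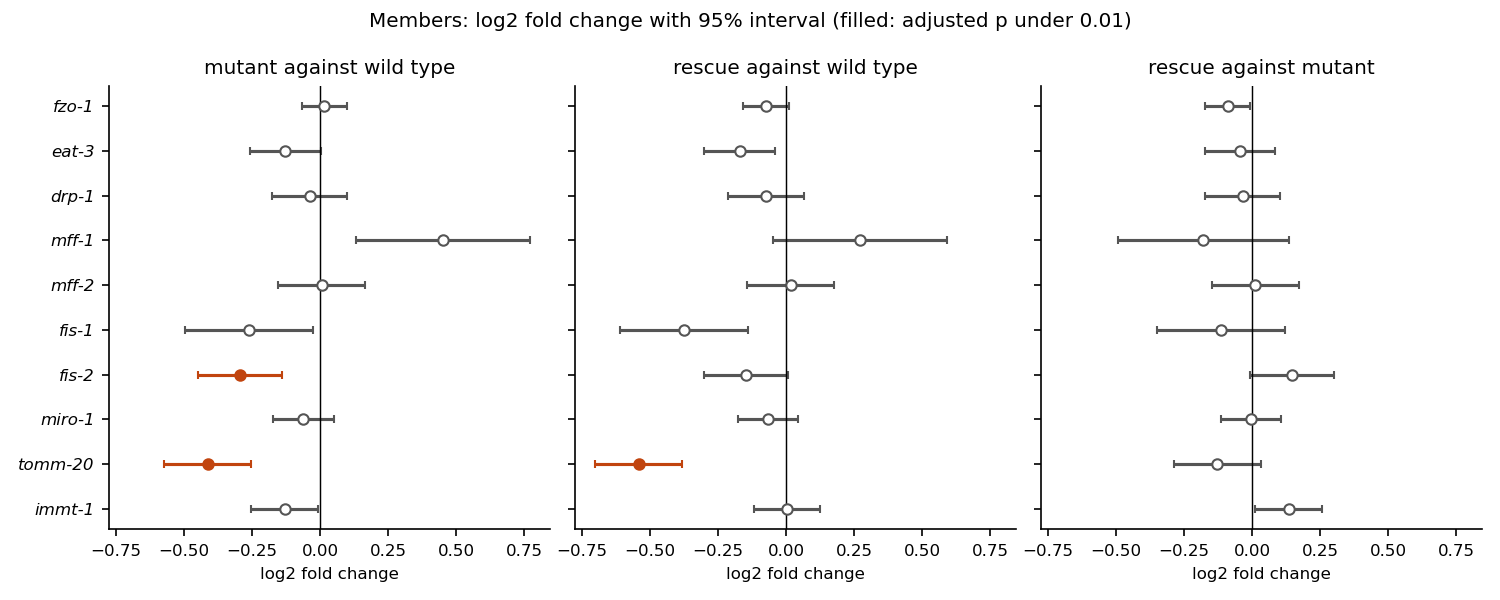
Log2 fold change (x axis) with its 95% interval for each of the 10 genes in the mutant against wild type, rescue against wild type and rescue against the mutant; filled points passed an adjusted p under 0.01. *tomm-20* is the filled point in both comparisons with wild type (-0.41 and -0.54), *fis-2* is filled for the mutant only, and no point is filled for rescue against the mutant.

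Complete separation of the groups, with no test, was seen for 3 of 10 genes between mutant and wild type (*mff-1*, *fis-2* and *tomm-20*), where 29.0% of all tested genes separated. It was seen for 3 of 10 between rescue and wild type (*fzo-1*, *fis-2* and *tomm-20*), where 34.4% of genes did, and for 2 of 10 between rescue and mutant (*fzo-1* and *immt-1*), where 17.7% did.

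The levels of the genes relative to each other, in CPM per kb of annotated exon, ran in almost the same order in the 3 groups. *tomm-20* was first, at 80.2 ± 7.2 in rescue, 87.6 ± 6.57 in the mutant and 117 ± 4.74 in wild type. *immt-1* was next (48.7 ± 2.36, 44.3 ± 0.979 and 48.5 ± 3.15 CPM per kb in the same order of groups), followed by *drp-1*, *eat-3*, *fzo-1* and *miro-1*. The ranges of *drp-1* and *eat-3* overlapped in rescue and wild type and those of *fzo-1* and *miro-1* did too, but neither pair overlapped in the mutant. In rescue the ranges of *miro-1* and *mff-2* overlapped as well. Below them came *mff-2* and *fis-2*, with *mff-2* ahead in rescue (21.8 against 21.3 CPM per kb) and in the mutant (21.6 against 19.3) with overlapping ranges, and *fis-2* ahead in wild type (23.6 against 21.5) without overlap. *fis-1* followed at 14.5 ± 1.79, 15.7 ± 1.39 and 18.8 ± 1.7 CPM per kb, and *mff-1* was last at 8.6 ± 1.24, 9.73 ± 0.532 and 7.07 ± 1.45 CPM per kb in rescue, mutant and wild type.

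The genes whose log2 CPM followed *fzo-1*, *drp-1* and *miro-1* most closely over the 12 samples were found by Pearson's r, as a description over samples that share libraries and groups. *fzo-1* was nearest to *puf-9* (r = 0.957), *gld-2* (r = 0.925) and *phip-1* (r = 0.911), although its own log2 CPM had an SD of 0.046 over the samples. *drp-1* was nearest to *pgs-1* (r = 0.936), *prp-17* (r = 0.917) and *fbxa-107* (r = 0.907). For *miro-1* they were *rpl-35* (r = 0.898), F29B9.11 (r = 0.889) and T02B11.3 (r = 0.885). All were picked as the highest r among the 15728 genes tested, over only 12 samples. How high the best r runs among unrelated genes was not examined, so the names are not read as a relation between genes.

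A further 43 genes that act with these 10 were listed by function, and all 43 passed the filter on low counts. The lists were chosen with earlier results of these data known, so their counts are descriptions and not independent support. In the mutant 21 of 43 were lower than wild type and 0 higher, where 9.01% of all tested genes were lower and 6.36% higher. In rescue 20 of 43 were lower and 0 higher, where 13.5% of all genes were lower and 10.2% higher. Between rescue and mutant 0 of the 43 were called. Over the 43 genes the median log2 fold change against wild type was -0.28 for the mutant and -0.27 for rescue.

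Protein import, the process to which *tomm-20* belongs, held most of them. In both the mutant and rescue 14 of its 15 listed genes were lower than wild type, with a median log2 fold change of -0.43 for the mutant and -0.55 for rescue, beside -0.41 and -0.54 for *tomm-20* itself. Of the TOM complex, *tomm-40*, the channel, averaged 119 ± 7.81 CPM in rescue, 130 ± 5.44 CPM in the mutant and 174 ± 8.62 CPM in wild type. *tomm-22*, a partner receptor, averaged 44.5 ± 2.99, 48.4 ± 5.97 and 73.4 ± 3.69 CPM in the same groups, log2 fold changes against wild type of -0.60 for the mutant and -0.72 for rescue. *tomm-7* (-0.60 and -0.70) and the receptor *tomm-70* (-0.41 and -0.35) were lower too. The small TIM chaperones that carry hydrophobic proteins across the intermembrane space fell in both groups: *tin-13* had log2 fold changes of -0.53 in the mutant and -0.72 in rescue, *tin-10* -0.43 and -0.60, and *tin-9.2* -0.42 and -0.55. *tin-9.1* (-0.55 and -0.70) was called in the mutant at an adjusted p of 0.00996, a call lost in 9 of the 12 fits that each left out 1 sample.

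Of the TIM23 complex, which threads proteins through the inner membrane, *timm-17B.2* had the largest fall of the 15 import genes, with 4.6 ± 0.772 CPM in rescue, 4.3 ± 0.286 CPM in the mutant and 10.1 ± 1.16 CPM in wild type (log2 fold changes of -1.13 in rescue and -1.22 in the mutant). Its paralogue *timm-17B.1* (-0.34 in the mutant and -0.37 in rescue) and the channel gene *timm-23* (-0.28 and -0.24, calls lost in 4 and 6 of 13 alternative settings) had smaller falls, as did *tin-44* (-0.43 and -0.47), *scpl-4* (-0.38 and -0.42) and *dnj-21* (-0.52 and -0.58). The uncalled gene was *gop-3*, the worm relative of SAM50, which inserts proteins into the outer membrane (-0.12 and -0.09, adjusted p = 0.174 and 0.301), named here after its values were seen.

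**Figure D4:**
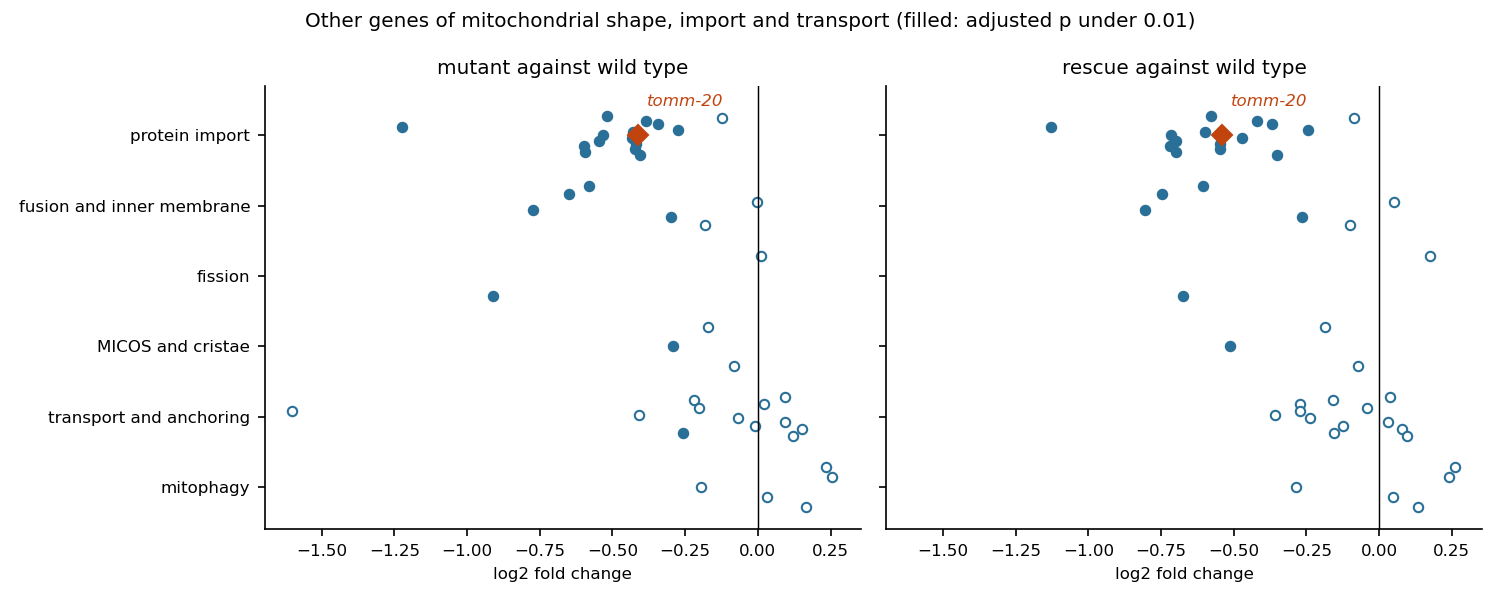
Log2 fold change (x axis) of the 43 listed genes by function, in the mutant (left) and rescue (right) against wild type; circles are genes, filled where the adjusted p was under 0.01, and the diamond is *tomm-20*. Of the 15 import genes 14 are filled and left of 0 in each panel, with *tomm-20* among them. Transport and mitophagy genes lie on both sides of 0. The point farthest left in the mutant panel is the uncalled *miro-2* (-1.60), named after its values were seen. It had 0.14 CPM in the mutant, near the floor of 3 counts (0.084 to 0.148 CPM in mutant libraries).

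Among genes that act on fusion proteins or hold the inner membrane, 4 of 6 were lower in both the mutant and rescue. *spg-7*, a subunit of the inner membrane m-AAA protease, averaged 107 ± 0.835 CPM in rescue, 109 ± 1.91 CPM in the mutant and 186 ± 10.7 CPM in wild type, log2 fold changes of -0.81 in rescue and -0.77 in the mutant. The prohibitins *phb-1* (-0.61 in rescue and -0.58 in the mutant) and *phb-2* (-0.75 and -0.65), which form rings in the inner membrane, and the stomatin-like gene *stl-1* (-0.26 and -0.30) fell as well, though the *stl-1* calls were lost in 5 of 13 alternative settings in rescue and 3 of 13 in the mutant. Of the 2 listed fission genes, *mtp-18*, whose mammalian relative acts in fission from the inner membrane, was lower, with 7.9 ± 1.21 CPM in rescue, 6.73 ± 0.593 CPM in the mutant and 12.6 ± 1.53 CPM in wild type (-0.67 in rescue and -0.91 in the mutant). Of 3 genes of MICOS and cristae, *immt-2*, the second mitofilin, was lower in both (-0.51 in rescue, adjusted p = 2.92e-05, and -0.29 in the mutant, adjusted p = 0.00182). The call in the mutant was lost in 4 of 13 alternative settings, and the difference from *immt-1* was not tested.

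Transport and mitophagy genes were called in few cases, beside 15.4% of all genes called in the mutant and 23.7% in rescue, so their counts are not read as a property of these lists. Of 12 genes for transport and anchoring 1 was lower in the mutant, the kinesin heavy chain *unc-116*, with 328 ± 15.1 CPM in rescue, 304 ± 14.3 CPM in the mutant and 364 ± 23.6 CPM in wild type. Its log2 fold change in the mutant was -0.26 (adjusted p = 0.0079), a call lost in 6 of the 12 fits without 1 sample, and in rescue -0.15 (adjusted p = 0.0623). The difference between those values, rescue against the mutant, was 0.11 (adjusted p = 0.397). In rescue 0 of the 12 were called by edgeR. Of 5 mitophagy genes 0 were called in any comparison, and they had a median log2 fold change against wild type of 0.16 for the mutant and 0.13 for rescue.

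The summed levels of germline and sperm markers were also lower in rescue and mutant than in wild type. The 4 germline markers summed to 1391 to 1535 CPM in rescue samples, 1523 to 1609 CPM in mutant samples and 1853 to 1972 CPM in wild type samples. In the mutant 2 of these 4 (*pgl-1* and *glh-1*) and in rescue 3 of 4 (*pgl-1*, *glh-1* and *him-3*) were lower than wild type. *gld-1* was not called, with 558 ± 37.5 CPM in rescue, 660 ± 40.6 CPM in the mutant and 590 ± 94.6 CPM in wild type, so its mutant mean was the higher. The 4 sperm markers summed to 126 to 146 CPM in rescue, 152 to 170 CPM in the mutant and 225 to 263 CPM in wild type, with 2 of 4 lower in the mutant (*msp-3* and *spe-41*) and 3 of 4 lower in rescue (*spe-11* as well). Of 4 body wall muscle markers 0 were called in either comparison. Among them, *unc-54* shares its 3′ UTR with the rescue array, whose part in the *unc-54* level of rescue was not tested. Of 4 intestine markers *ifb-2* was higher in the mutant, and of 4 neuron markers *unc-64* was higher in rescue. The part of germline and sperm content in the level of *tomm-20* was not tested.

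**Figure D5:**
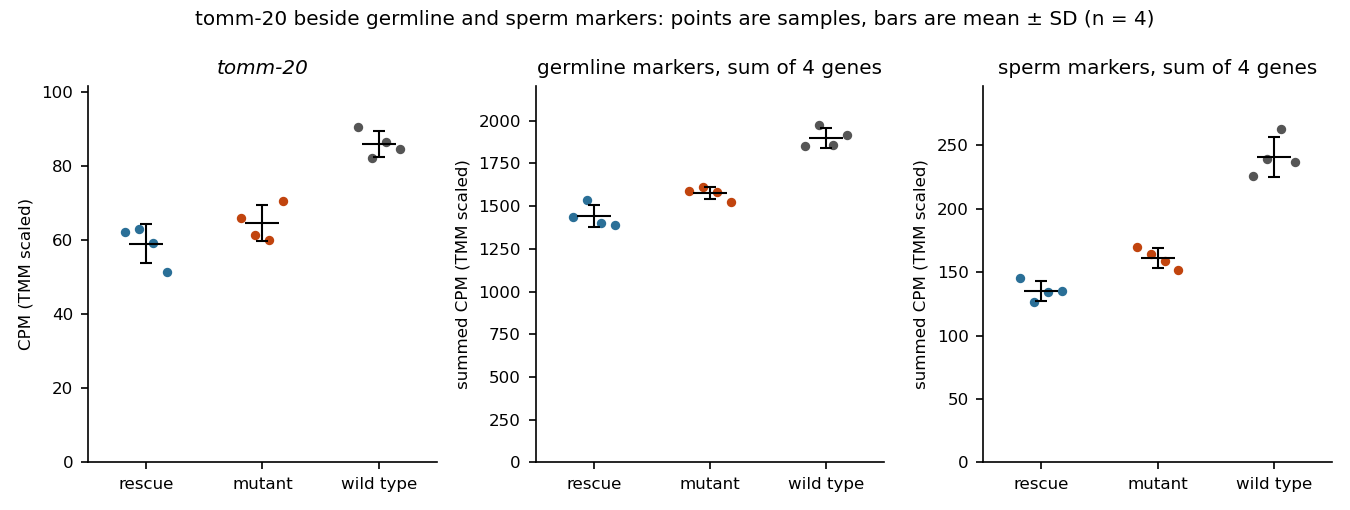
CPM (TMM scaled, axes from 0) of *tomm-20*, and summed CPM of 4 germline and 4 sperm markers, in each sample of rescue, mutant and wild type; points are samples and bars are mean ± SD (n = 4). In all 3 panels every wild type sample lies above every mutant and rescue sample.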

How the data were processed

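RNA-Seq data of 12 whole-worm samples were taken as deposited. The authors ran bcbio-nextgen, checked alignments to the Ensembl 94 build with STAR, estimated transcript abundance with Salmon and summed it to genes with tximport. The labels name WBcel235, CASAVA, Salmon and DESeq2, and versions and the use of strand in counting are not given in the sources used here. The authors deposited estimated counts of each gene, not scaled between samples, and a normalized signal: those counts, rounded, over 1 DESeq2 size factor for each sample. This table was used only to recover the factors. Annotation is Ensembl release 115 for WBcel235.

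Counts were rounded, filtered with filterByExpr (15728 of 21882 genes), scaled by TMM (factors 0.952 to 1.08) and fitted with edgeR 4.0.16 in R 4.3.3 (glmQLFit and glmQLFTest; common dispersion 0.0299; no block; threshold 0.01 on Benjamini-Hochberg adjusted p). The 10 genes and all gene lists were chosen with earlier results of these data known. All 10 genes were named, listed genes only if called unless stated, and for 3 genes the 3 nearest by r. In the smallest library, the floor of 3 counts is 0.21 CPM, and it covers counting error only. Alternatives were DESeq2 1.42.0, other scalings and filters, blocks, the 2 groups alone, a threshold of 0.05 and each sample left out, and, chosen after seeing the data, pairs of wild type samples left out. The fit was also run on simulated counts drawn independently for each sample. They held no collection days and no split among wild type samples, so that run says nothing on either.

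The labels give collection days. Rescue and mutant replicates of 1 number share a day (1, 2, 4 and 6), so their numbers pair them. Wild type replicates were collected on days 2, 4, 6 and 8, where equal numbers do not mean equal days. Deviations from the group means of same-day rescue and mutant samples correlated by -0.019, 0.148, -0.143 and 0.01 over genes. No pair of replicates agreed within sampling noise (chi-square per degree of freedom at least 14.3).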

Additional observations from a re-analysis of the deposited data

Results flagged for a closer look

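In rescue, *fzo-1* had 63.3 CPM in replicate 4, apart from the other 3 samples of its group (64.2 to 64.3 CPM). The rule for this flag was stricter than a gap wider than the spread among the other 3 samples. Such a gap alone was also seen in groups that were not flagged, such as *drp-1* in rescue (80.3 CPM beside 90.5 to 94.6 CPM). By the stricter rule chance sets 1 sample apart in about 1 of 20 groups, and 30 combinations of gene and group were examined. All 4 samples lie within 1.05 CPM of each other. With 1575 to 2101 *fzo-1* counts in these samples, counting error in 1 sample is larger than the gap.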

How the results depend on the processing

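The number of the 10 genes called in the mutant against wild type (2) was 1 with DESeq2-style size factors, library size alone, at least 10 counts in every sample, the replicate number as a block, no filter beyond 1 count, the 2 groups alone, or without wild type replicates 1 and 3, and 0 with a collection day block, in all samples or in the 2 groups alone. *fis-2* was the call lost in each, with an adjusted p of 0.0113 to 0.206, and the day blocks also lost *tomm-20* (adjusted p = 0.0159 and 0.117). Without wild type replicates 2 and 4 the number stayed at 2, but *fis-2* was lost there too (adjusted p = 0.0321) and *mff-1* was called (adjusted p = 0.00392). In rescue against wild type (1 call), DESeq2 gave 2, a threshold of 0.05 gave 3, and the 2 groups with a collection day block gave 0 (*tomm-20* at adjusted p = 0.0513). The test for any difference (1 call) gave 3 at a threshold of 0.05, 2 without wild type replicates 2 and 4, and 0 with a collection day block. Leaving out each sample gave 1 to 1, 1 to 2, 0 to 0 and 1 to 1 calls in the mutant against wild type, rescue against wild type, rescue against mutant and any difference. The pairing of rescue and mutant by day, as a block, changed 0 calls between them among the 10.

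The listed genes called against wild type (21 in the mutant, 20 in rescue) were 16 to 28 in the mutant and 17 to 24 in rescue in all other fits but 1: the 2 groups with a collection day block gave 0 in each, a fit that called 1 gene in the mutant and 2 in rescue of all genes tested. Leaving out each sample gave 18 to 21 and 19 to 21. Between rescue and mutant, where 0 were called, DESeq2 gave 1 (*immt-2*), the 2 groups alone 1 (*klc-1*), and leaving out wild type replicates 1 and 3 gave 2 (both). The calls of *timm-23* were lost in 4 of 13 other settings in the mutant and 6 of 13 in rescue, and also without mutant replicate 2 (adjusted p = 0.0116), and in rescue without wild type replicate 3, rescue replicate 3 or rescue replicate 4 (0.0113 to 0.0136).

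Signs turned in 38 instances, all of differences that were not called. With library size alone, with which the median log2 fold change of all genes for rescue against wild type was 0.14 in place of 0.04, *fzo-1* was 0.0234, *drp-1* 0.0250 and *miro-1* 0.0305 in rescue against wild type, and *drp-1* 0.0319, *eat-3* 0.0202 and *miro-1* 0.0596 in rescue against the mutant. It gave 2142 genes higher and 1146 lower in rescue than wild type (1602 and 2119 by TMM) and 86 and 8 in rescue against the mutant (48 and 12). With a collection day block, *fzo-1* was -0.0015 and *drp-1* 0.0002 in the mutant, and in the 2 groups alone *fzo-1* was -0.0027 in the mutant and *immt-1* -0.0022 in rescue. In rescue against wild type *immt-1* was -0.0094 with DESeq2 and -0.0069 with its size factors, and -0.0422 without wild type replicates 2 and 4. In rescue against the mutant *mff-2* was -0.0038 with DESeq2 and -0.0042 with its size factors, and *miro-1* was 0.004 with the upper quartile and 0.0061 with at least 10 counts. In the mutant *drp-1* was 0.0267 without wild type replicates 2 and 4, and *mff-2* was -0.0103 without replicates 1 and 3. Leaving out 1 sample, differences that changed sign ran over -0.0058 to 0.0272 (*fzo-1*, mutant against wild type), -0.041 to 0.0303 (*mff-2*, mutant against wild type), -0.0237 to 0.0487 (*mff-2*, rescue against wild type), -0.043 to 0.0327 (*immt-1*, rescue against wild type), -0.0665 to 0.012 (*drp-1*), -0.0332 to 0.057 (*mff-2*) and -0.028 to 0.0302 (*miro-1*), the last 3 in rescue against the mutant. The cause of these changes was not tested. Of the 10 genes *mff-1* had the fewest counts, 56 in its smallest sample.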
